A study of Rattus norvegicus with 65 samples.

Results

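The genes followed here are 10 genes of the endoplasmic reticulum (ER) stress response, namely Hspa5, Hsp90b1, Calr, Sdf2l1, Ern1, Xbp1, Atf4, Ddit3, Trib3 and Herpud1. They were chosen by symbol, each matched 1 row of the 38513 genes in the deposited count table, and all 10 passed the filter on low counts. RNA of the whole hypothalamus, the brain region that sets hunger and energy use, was sequenced from 65 adult male Wistar rats, with 1 library per rat. The rats were 9 to 10 weeks old at the start, and the groups other than lean had eaten a high-fat diet for 6 weeks before the intervention. The surgical arm held 14 rats with Roux-en-Y gastric bypass (RYGB), 11 sham-operated rats, and 7 body-weight-matched (BWM) rats whose food was restricted so that their weight would follow that of the bypass rats. The medical arm held 8 rats given saline, 5 given liraglutide (0.4 mg/kg/day, an agonist of the GLP-1 receptor), 4 given the gut hormone PYY3-36 (0.1 mg/kg/day) by minipump, and 10 given both peptides (PYY3-36 + liraglutide). The labels call the remaining 6 rats lean, which was read as the study's group kept on low-fat diet only. Rats of every treated group were killed 4 weeks after their intervention, following 10 h of fasting. After the intervention the treated and control rats, BWM and lean rats aside, could choose freely between high- and low-fat diet. The experiments ran in 2 periods, batch A with 37 and batch B with 28 libraries. All BWM and lean rats were in batch A, and all rats given only 1 of the peptides were in batch B.

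Proteins that enter the ER are folded by resident chaperones, and unfolded protein sets off the unfolded protein response. Its sensors are IRE1 (encoded by Ern1), PERK and ATF6. IRE1 splices the Xbp1 message into a form that encodes an active transcription factor. PERK slows translation in general while favouring that of Atf4, which in turn raises Ddit3 (CHOP) and Trib3. ATF6 and XBP1 raise chaperones and the proteins that send misfolded protein to the proteasome. In the hypothalamus, chronic activation of this response is known to accompany high-fat feeding and to blunt leptin signalling. Exon counts per gene measure none of these steps directly, since neither splicing of Xbp1, nor phosphorylation, nor translation of Atf4 is in them.

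The promoters of some of the 10 genes carry the letters through which ATF6 and XBP1 are known to act, so those sites are shown before the values. The ER stress response element (ERSE) was searched as CCAAT and CCACG with any 9 bases between them and ERSE-II as ATTGG and CCACG with any 1 base between them, on both strands of RefSeq promoter windows that run from 250 bases before to 50 bases after each start (build GRCr8). Of the 10 genes, 9 had such a window, and Ern1 had none. An ERSE was found in 21 of 27457 windows (0.076%), among them those of Hspa5, Hsp90b1, Calr and Xbp1. An ERSE-II was found in 15 windows (0.055%), among them that of Herpud1. The 6 sites are given on the strand of the gene with the element in capitals.
Hspa5, chr3:38452973-38452991, + strand: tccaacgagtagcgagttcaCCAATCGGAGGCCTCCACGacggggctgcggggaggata
Hsp90b1, chr7:23012451-23012469, - strand: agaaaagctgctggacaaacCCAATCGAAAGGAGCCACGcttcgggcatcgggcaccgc
Hsp90b1, chr7:23012347-23012365, - strand, element on the opposite strand: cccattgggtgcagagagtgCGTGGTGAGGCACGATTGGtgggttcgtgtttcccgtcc
Calr, chr19:40213135-40213153, + strand, element on the opposite strand: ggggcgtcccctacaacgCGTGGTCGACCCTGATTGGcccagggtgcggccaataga
Xbp1, chr14:84604558-84604576, + strand: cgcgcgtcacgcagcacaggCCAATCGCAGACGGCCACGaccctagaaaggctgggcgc
Herpud1, chr19:10614821-10614831, - strand: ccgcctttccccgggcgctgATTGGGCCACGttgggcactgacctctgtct
The first base of the element lay 43 bases before the start in Hspa5, 176 and 72 in Hsp90b1, 232 in Calr, 65 in Xbp1 and 124 in Herpud1. Shorter cores were less selective. The letters TGACGTG, a core bound by ATF6 and XBP1, stood in 1.876% of all windows and in that of Hspa5, 135 bases before the start. The letters TGATGNAA, a core for ATF4 paired with a C/EBP factor such as CHOP, stood in 3.817% of all windows. Among the 10 genes they were in Trib3 and Herpud1, at 21 and 184 bases before the start. None of the 4 motifs was in the windows of Atf4, Ddit3 and Sdf2l1. Only exact letters were searched, and near matches were not counted, so a window without a match may still hold a related site. That of Ddit3 held a stretch 1 base off an ERSE on the opposite strand. A match of letters is a description and no evidence of binding in these rats.

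The libraries held between 20041010 and 36539941 counts on genes, with a median of 29571658 among the libraries of batch A and of 23386048 among those of batch B. The dissected tissue was checked against 12 marker genes of the hypothalamus, averaged as log2(CPM + 1), where CPM is counts per 1000000 after scaling between libraries. In 13 of the 65 libraries this score was between 1.398 and 2.92, and in the other 52 it was between 3.66 and 6.35. The low libraries comprised 4 sham, 2 saline, 2 lean, 2 liraglutide, 1 BWM, 1 PYY3-36 and 1 PYY3-36 + liraglutide library, but 0 of the 14 RYGB libraries. In them 11 of the 12 genes had a lower median than in the other libraries, and 1, the neuropeptide gene Npy, a higher one, at 29.4 against 13.9 CPM. The medians of Crh were close, at 4.51 and 5.71 CPM. The orexin gene Hcrt had a median of 0.247 CPM in the low libraries against 79.3 CPM in the others, and Pmch a median of 3.90 against 633 CPM. Sim1 and Hcrt were at 0 CPM in some of them. The 12 genes summed to between 727 and 6973 CPM in RYGB and between 60.55 and 6950 CPM in sham. BWM replicate 5 stood apart in another way, with 10 pituitary genes summing to 76920 CPM, of which the growth hormone gene Gh1 gave 62720 CPM. In the other groups this sum was at most 512 CPM. BWM replicate 7 also held pituitary genes, with 492 CPM of Gh1 and 104 CPM of Prl. The 13 low libraries and BWM replicate 5 touch several results below, which are given with and without them. In bulk tissue, fewer cells of a type and less RNA per cell cannot be told apart.

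Most of the 10 genes were abundant in every rat. Per kilobase of exon, the order of the median levels over the 65 libraries was led by Calr at 267 CPM per kb, ahead of Hspa5 at 205 and Hsp90b1 at 178 CPM per kb. Calr encodes calreticulin, a calcium-binding lectin chaperone, Hspa5 encodes BiP, the main Hsp70 of the ER, and Hsp90b1 encodes GRP94, its Hsp90. Atf4 followed at 166 and Xbp1 at 62.2 CPM per kb. Herpud1, a membrane component of ER-associated degradation, was at 33.3 CPM per kb, Ddit3 at 17.5 and Sdf2l1, a partner of the chaperone DNAJB11, at 13.5. Ern1 was at 2.48 CPM per kb. Trib3, a pseudokinase induced by CHOP, was at 0.276 CPM per kb. It had between 0 and 31 deposited counts per library, so its differences rest on few reads. The neighbours in this order were often closer than their spread over rats, as between Hspa5 (128 to 431 CPM per kb) and Hsp90b1 (129 to 284 CPM per kb). The widest spread among the well-counted genes was that of Ern1, whose highest library was 5.41 times its lowest, and 3.23 times without BWM replicate 5. For Calr this ratio was 1.996.

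**Figure D1:**
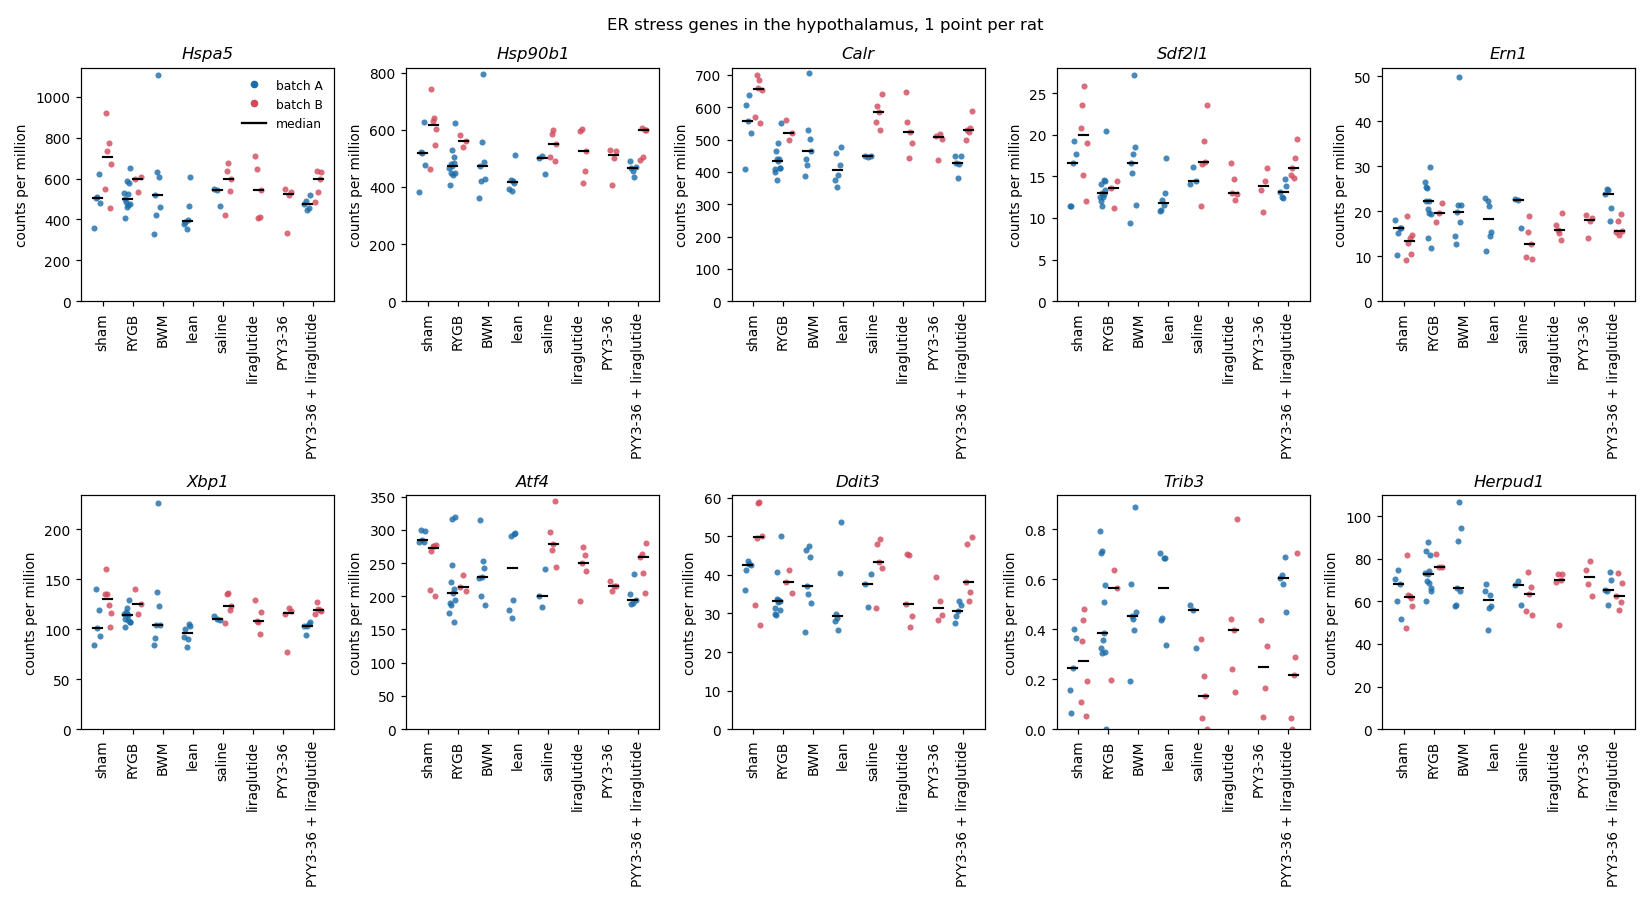
CPM of each gene (vertical axes, from 0) in each rat (points), by group (horizontal axes), with batch A in blue, batch B in red and the median of each group in each batch as a black line. BWM replicate 5 is the high point of that group for Hspa5 (1104 CPM), Xbp1 (226 CPM) and Ern1 (49.9 CPM), and the sham points for Calr lie mostly above the RYGB points of the same batch.

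Ranking the 8 groups by their median CPM placed sham highest for 7 of the 10 genes, namely Hspa5, Hsp90b1, Calr, Xbp1, Atf4, Ddit3 and Sdf2l1. Lean was lowest for 7 of 10, namely Hspa5, Hsp90b1, Calr, Xbp1, Ddit3, Herpud1 and Sdf2l1. The distance was modest. The highest group median was 1.401 times the lowest for Hspa5 and 1.496 times for Calr. Ern1, Trib3 and Herpud1 had another order, with RYGB highest for Ern1 (21.1 CPM) and Herpud1 (73.7 CPM), and lean highest for Trib3. The groups were spread unequally over the batches, and lean rats were all in batch A, where many of these genes were lower. Among the 6 groups of batch A alone, lean was still lowest for 7 of 10 genes and sham highest for 5. RYGB was highest there for Xbp1 and Herpud1. Ern1 and Trib3 were highest there in PYY3-36 + liraglutide, at 23.8 and 0.604 CPM. Among the 6 groups of batch B, RYGB was highest for Ern1, Trib3 and Herpud1. These orders are descriptions, and the tests follow.

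The 2 batches differed in more of these genes than any pair of groups did. With the group as a term in the model, 5 of 10 genes were higher in batch B and 1 was lower, 6 of 10 in all. Of all 21871 genes tested, 40.7% were called between the batches, and 6 of 10 is to be read against that share. Calr was higher in batch B by 0.29 ± 0.06 (log2, SE; adjusted p = 3.09e-05), Hsp90b1 by 0.24 ± 0.07, Hspa5 by 0.28 ± 0.10, Ddit3 by 0.24 ± 0.09 and Xbp1 by 0.21 ± 0.07. Ern1 was lower, with a log2 difference of -0.32 ± 0.12 and an adjusted p of 0.0262. Here and below, adjusted p-values come from edgeR's quasi-likelihood test with Benjamini-Hochberg adjustment over all genes tested, and a gene is called at an adjusted p under 0.05. Of 55 further genes of the pathway in 4 lists, 27 were called between the batches, 49.1% against the 40.7% of all genes. Of 16 ER chaperones and folding enzymes 8 were higher in batch B and 0 lower, among them Canx (calnexin) and Dnajb9, a partner of BiP, by 0.33 ± 0.07 and 0.42 ± 0.09. Of 15 genes of ER-associated degradation and translocation 8 were higher and 1 lower. Of 16 targets of ATF4 and CHOP 3 were higher and 3 lower, and of 8 sensor genes and their processing enzymes 3 were higher and 1 lower. All 5 blood genes, which encode haemoglobin chains and the erythroid enzyme ALAS2, were higher in batch B too. The labels give no more on the batches than their letters, and batch stood as a term in every model unless stated.

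The surgical question is whether bypass changes the hypothalamus of obese rats. Between RYGB and sham, 2 of the 10 genes were called, Calr lower and Ern1 higher. Of all genes tested 13% were called, 6.52% as higher and 6.53% as lower, so 2 of 10 is close to the share over all genes. None of the 10 genes reached a log2 fold change over 1, a threshold which together with the adjusted p 2.37% of all genes passed. The median log2 fold change of the 10 genes was -0.08, against -0.02 over all genes tested. RYGB and sham were in both batches, so the batches are given apart below.

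Calr (chr19:25956771-25961666, - strand, build Rnor_6.0) was lower after bypass. In batch A the 11 RYGB libraries ran from 375 through a median of 433 to 550 CPM. The 5 sham libraries of batch A held 409, 607, 558, 637 and 520 CPM. All 11 RYGB libraries were below the sham median of 558 CPM, and the groups overlapped through RYGB replicate 11 and sham replicate 1. In batch B the RYGB libraries held 560, 498 and 522 CPM, and the 6 sham libraries ran from 550 through 656 to 700 CPM. All 3 were below the sham median there as well, with 2 of them below every sham library. The log2 fold change was -0.28 ± 0.07 (SE, 14 against 11 rats; adjusted p = 0.0079), a ratio of 0.821. Within batch A it was -0.30 ± 0.11 (adjusted p = 0.0997, where 2.43% of all genes were called), and within batch B -0.26 ± 0.10 (adjusted p = 0.112, with 11.8% called), so the size was alike in both but neither batch alone passed the threshold. The call held when each of the 25 libraries was left out in turn, with adjusted p between 0.00108 and 0.0319. Without the 13 libraries low in hypothalamus markers the log2 fold change was -0.35 (adjusted p = 0.00255). The Calr counts were not whole in 55 of the 65 libraries, so some of its reads were shared with another place or gene.

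The other chaperones did not follow Calr past the threshold. Hspa5 (chr3:13838304-13842763, + strand, Rnor_6.0) ran from 409 to 651 CPM in RYGB of batch A, with a median of 502 CPM, and the 5 sham libraries held 356, 503, 512, 624 and 479 CPM. In batch B the RYGB libraries held 600, 534 and 606 CPM, and sham ran from 457 through 704 to 920 CPM. The groups overlapped in both batches, and the log2 fold change of Hspa5 was -0.07 ± 0.13 (adjusted p = 0.747). Hsp90b1 was at -0.08 ± 0.09 (adjusted p = 0.535). Its medians in RYGB and sham were 475 and 518 CPM in batch A and 561 and 616 CPM in batch B. Sdf2l1 had a median of 12.98 CPM in RYGB and 16.6 CPM in sham of batch A, and 13.6 and 19.9 CPM in batch B, with overlap in both. Its log2 fold change was -0.28 ± 0.12 (adjusted p = 0.114). It was called without RYGB replicate 11, at -0.34 (adjusted p = 0.0357). It was also called, at -0.45 (adjusted p = 0.0138), without the 13 libraries low in hypothalamus markers and at -0.36 (adjusted p = 0.0246) with the marker score as a covariate. Both of these settings were added after the data had been seen. The share of all genes called without RYGB replicate 11 or under these settings is not given. The calls therefore show nothing particular to Sdf2l1.

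Ern1 (chr10:94588555-94682072, - strand, Rnor_6.0), the gene of the sensor IRE1, was higher after bypass. In batch A the 11 RYGB libraries ran from 11.9 through 22.3 to 29.7 CPM, and the sham libraries held 17.96, 10.2, 15.3, 16.3 and 16.3 CPM. In 9 of the 11 RYGB libraries Ern1 was above every sham library, while RYGB replicates 6 and 11, at 13.99 and 11.9 CPM, were within the sham range. In batch B the 3 RYGB libraries held 17.6, 19.6 and 21.8 CPM, against a range from 9.22 through 13.5 to 18.8 CPM in 6 sham libraries. The log2 fold change was 0.47 ± 0.16 (adjusted p = 0.0382), a ratio of 1.38. It was 0.51 in batch A (adjusted p = 0.185) and 0.57 in batch B (adjusted p = 0.0586). The call was fragile. It was lost when any of 13 of the 25 libraries was left out, namely RYGB replicates 1, 3, 4, 9, 12, 13 and 14 and sham replicates 2, 3, 4, 5, 6 and 10, with the weakest value of 0.40 (adjusted p = 0.0918) without sham replicate 2. Without the 13 libraries low in hypothalamus markers, 4 of them sham and 0 RYGB, it was 0.34 (adjusted p = 0.174). Ern1 itself had a median of 14.04 CPM in those 13 libraries and 19.3 CPM in the other 52.

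Of the transcription factors, none was called. Xbp1, counted over spliced and unspliced messages together, was at 0.04 ± 0.09 (log2, SE; adjusted p = 0.825). Its medians were 114.5 CPM in RYGB and 101.4 CPM in sham of batch A, where all 11 RYGB libraries were above the sham median. In batch B they were 125.4 and 129.7 CPM, with 1 of 3 RYGB libraries above the sham median. Atf4 had a median of 205 CPM in RYGB and 285 CPM in sham of batch A, where 9 of 11 RYGB libraries were below every sham library but 2 were above all of them. The medians in batch B were 215 and 272 CPM, with overlap. Its log2 fold change was -0.26 ± 0.10 (adjusted p = 0.0874). Those 2 were RYGB replicates 6 and 11, and leaving out either gave a call, at -0.30 (adjusted p = 0.0345) and -0.31 (adjusted p = 0.0189). Ddit3, which encodes the pro-apoptotic factor CHOP, had medians of 33.2 CPM in RYGB and 42.5 CPM in sham of batch A and of 38.2 and 49.9 CPM in batch B. In batch A it was below every sham library in 9 of 11 RYGB libraries and above all of them in 1. All 3 RYGB libraries of batch B were below the sham median there. The fitted log2 fold change of -0.23 ± 0.12 was not past the threshold (adjusted p = 0.167). Without the 13 libraries low in hypothalamus markers Ddit3 was called, at -0.36 (adjusted p = 0.0308). For these fits of Atf4 and Ddit3 the share of all genes called is not given either.

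Downstream of these factors, Trib3 had medians of 0.385 CPM in RYGB and 0.245 CPM in sham of batch A and of 0.564 and 0.273 CPM in batch B. Its log2 fold change was 0.62 ± 0.43 (adjusted p = 0.339), the widest error of the 10 genes, at a median of 11 counts per library. Herpud1 had medians of 73.1 and 68.1 CPM in batch A and of 76.3 and 62.0 CPM in batch B, and the groups overlapped in both. The log2 fold change of Herpud1 was 0.21 ± 0.09 (adjusted p = 0.0844), opposite in sign to that of Calr. Herpud1 was called without sham replicate 7 (0.26, adjusted p = 0.0382), a fit whose share of all genes called is not given. Herpud1 was above the sham median of the same batch in 8 of 11 RYGB libraries of batch A and in 3 of 3 of batch B.

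**Figure D2:**
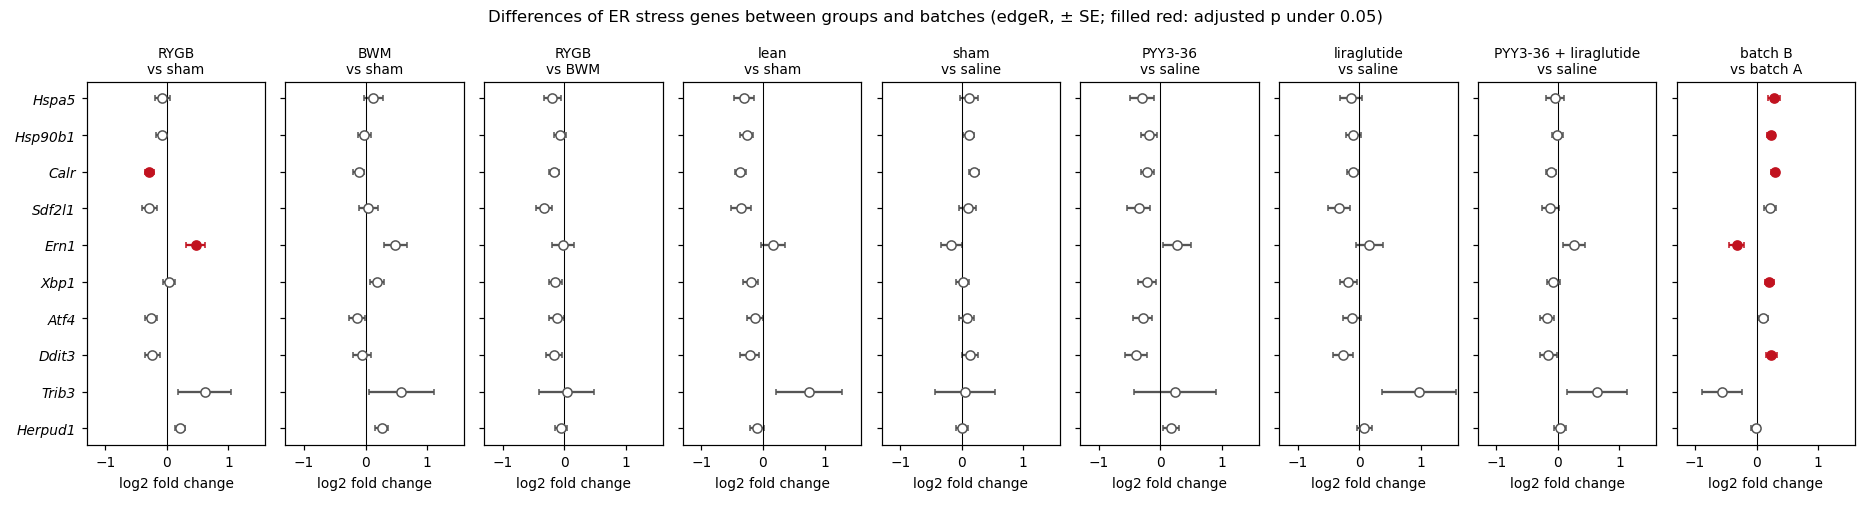
Log2 fold changes (horizontal axes) of the 10 genes (rows) in 8 comparisons between groups and between the batches, with bars of 1 SE. Red filled points mark an adjusted p under 0.05, which only Calr and Ern1 reached between groups, both in RYGB vs sham, and 6 genes between batches.

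Few markers of cell types and tissues were called between RYGB and sham, although the medians of some lists were far from 0. Of the marker lists, 1 of 12 choroid plexus genes (Kl), 1 of 6 endothelial genes (Cdh5) and 1 of 6 microglial genes (Cx3cr1) were higher in RYGB. Of the 12 hypothalamus, 6 neuron and 5 striatum genes 0 were called, against 13% of all genes. The median log2 fold change was 1.32 for the choroid plexus list, 1.20 for meninges and -1.17 for striatum. The medians of the other lists lay between -0.47 and 0.43. The summed CPM of the 5 striatum genes ran from 133 to 439 CPM in RYGB and from 114 to 3485 CPM in sham. With the scores of pituitary, choroid plexus and meninges markers in the model, Calr was at -0.31 (adjusted p = 0.00268) and Ern1 at 0.38 (adjusted p = 0.0514).

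**Figure D3:**
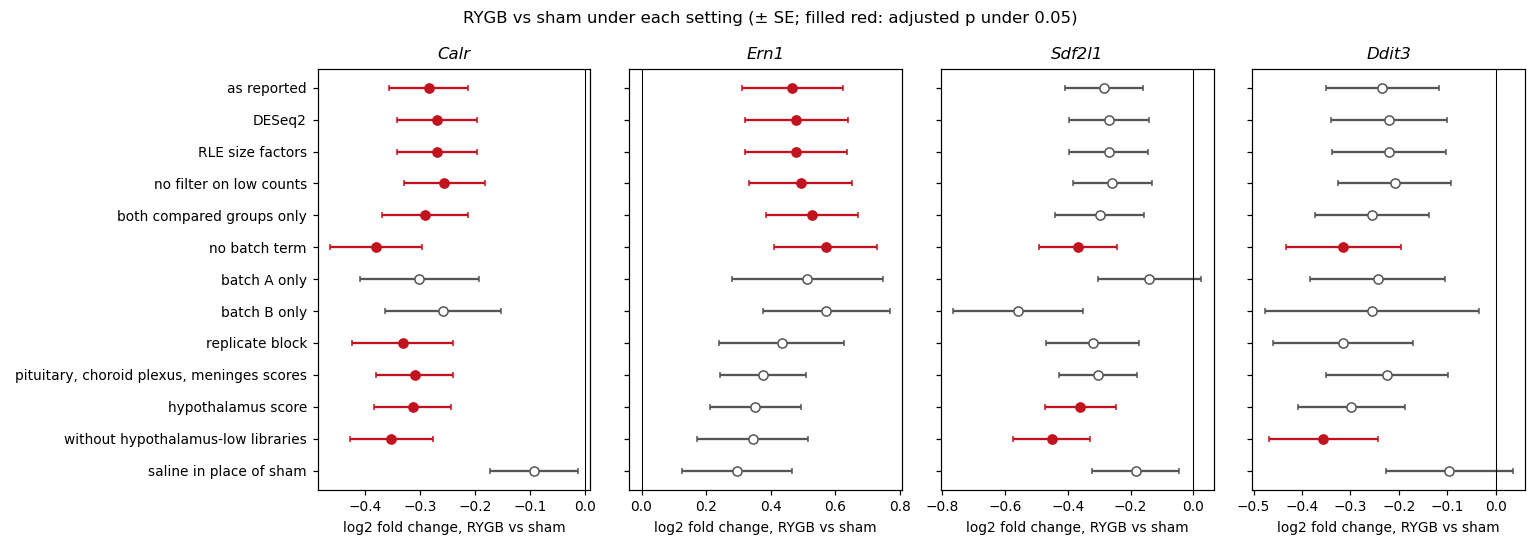
Log2 fold change of Calr, Ern1, Sdf2l1 and Ddit3 between RYGB and sham (horizontal axes, with bars of 1 SE) under each setting (rows), with red filled points for an adjusted p under 0.05. Every point of a gene keeps its sign, the Calr points lie between -0.38 and -0.26 until saline replaces sham (-0.09), and the call of Ern1 is lost in 7 of the 12 alternatives.

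The calls depended on the control group. With saline in place of sham, Calr was at -0.09 (adjusted p = 1) and Ern1 at 0.30 (adjusted p = 1) in RYGB, where 0.00457% of all genes were called. Sham and saline themselves were not told apart in the 10 genes. Of these, 0 were called between sham and saline by edgeR and 0 by DESeq2, while 0.0137% of all genes were called. An unadjusted p under 0.05 was reached by 1 of the 10 genes, against 12.9% of all genes. That 1 gene was Calr, at 0.19 ± 0.08 (adjusted p = 0.329). The saline libraries of Calr in batch A held 446, 448 and 449 CPM, close to the RYGB median of 433 CPM, and those of batch B ran from 529 to 641 CPM.

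Weight loss by food restriction left the 10 genes without a call. Between BWM and sham, 0 of 10 genes were called by edgeR and 0 by DESeq2, and 0.32% of all genes were called. An unadjusted p under 0.05 was reached by 2 of the 10 genes, against 12.3% of all genes. The largest differences of well-counted genes were those of Ern1, at 0.49 ± 0.19 (adjusted p = 0.26), and Herpud1, at 0.26 ± 0.11 (adjusted p = 0.281). Ern1 was at 14.5, 12.7, 19.8, 21.5, 49.9, 17.6 and 21.3 CPM in the 7 BWM libraries, so replicate 5 stood far above the rest. Without it, the log2 fold change of Ern1 was 0.14 (adjusted p = 0.841), that of Hspa5 went from 0.13 to -0.13, that of Xbp1 from 0.18 to -0.05, and that of Herpud1 from 0.26 to 0.15. BWM replicate 5 was the library richest in the pituitary genes, 5 of which were called between BWM and sham. Its 1104 CPM of Hspa5 was the highest value of any rat. Leaving it out does not clear pituitary genes from the group, since replicate 7 held 492 CPM of Gh1.

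The comparison of RYGB with BWM rats was designed to set bypass against restriction at a like weight, though the study names as a limit that the BWM rats were the heavier ones when the tissue was taken. Of the 10 genes 0 were called by edgeR and 0 by DESeq2, and 0.343% of all genes were called. An unadjusted p under 0.05 was reached by 2 of the 10 genes, against 12.6% of all genes. The signs were negative for 9 of 10 genes, with a median log2 fold change of -0.14 against -0.03 over all genes tested. Sdf2l1 was at -0.33 ± 0.14 (adjusted p = 0.337) and Calr at -0.17 ± 0.08 (adjusted p = 0.363). The difference of Ern1 was within its error, at -0.02 ± 0.17. The negative signs rested in part on BWM replicate 5. Without it, 4 of the 10 genes were negative and 6 positive, with a median of 0.03 and 0 calls. Ern1 was then at 0.33 ± 0.16 (adjusted p = 0.49), Hspa5 at 0.06 instead of -0.20, Hsp90b1 at 0.10, Xbp1 at 0.09 and Herpud1 at 0.07. Sdf2l1 was at -0.15 and Calr at -0.05.

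Lean rats had the lowest levels of the chaperones, yet no gene of the 10 was called between lean and sham. By edgeR 0 of 10 genes and 0% of all genes passed. By DESeq2 1 of the 10 passed, and the share of all genes called by DESeq2 is not given. An unadjusted p under 0.05 was reached by 3 of the 10, against 12.2% of all genes. The lean libraries of Calr held 375, 459, 353, 390, 420 and 478 CPM. In batch A, the only batch with lean rats, the sham libraries held 409, 607, 558, 637 and 520 CPM, so that sham replicate 1 was the 1 sham library inside the lean range. The log2 fold change of Calr was -0.37 ± 0.09 (adjusted p = 0.151). Hspa5 held 379, 390, 353, 396, 464 and 606 CPM in lean rats, with replicate 6 above the others, and the difference from sham was -0.31 ± 0.16 (adjusted p = 0.441). Calr passed the threshold under several settings. Its adjusted p was 0.0282 without the 13 libraries low in hypothalamus markers (-0.48), 0.0496 by DESeq2 and 0.0448 with the tissue scores. It was 0.0199 without lean replicate 6 and 0.0207 without sham replicate 1. The share of all genes called under each of these settings is not given, so the calls show nothing particular to Calr. Against saline, Calr of lean rats was at -0.17 (adjusted p = 1).

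The medical arm asks whether the gut peptides, alone or together, act on the hypothalamus. Against saline, 0 of 10 genes were called for PYY3-36, 0 for liraglutide and 0 for PYY3-36 + liraglutide, by edgeR and by DESeq2. The unadjusted p was under 0.05 for 1, 0 and 0 of the 10 genes, against 7.54%, 2.085% and 2.53% of all genes. Over all genes 0%, 0% and 0.00457% were called. For Ern1 the 3 log2 fold changes were 0.27 ± 0.23, 0.17 ± 0.22 and 0.26 ± 0.18 in this order, and for Calr they were -0.21 ± 0.11, -0.10 ± 0.10 and -0.11 ± 0.08. Ddit3 after PYY3-36 was the gene with the unadjusted p under 0.05, at -0.39 ± 0.18 (adjusted p = 0.652). Its 4 libraries ran from 28.2 to 39.4 CPM, within the saline range of batch B of 31.5 to 49.3 CPM or below it. Calr and Atf4 did not overlap between these groups in batch B, the only batch with PYY3-36 rats. Calr ran from 438 to 516 CPM after PYY3-36 and from 529 to 641 CPM in the 5 saline libraries. Atf4 ran from 208 to 222 CPM and from 245 to 343 CPM. Neither passed the test, with adjusted p of 0.652 for Calr and 0.653 for Atf4. The 3 saline libraries of batch A, which are in the fit, held between 446 and 449 CPM of Calr and between 184 and 242 CPM of Atf4. In batch A, Xbp1 after PYY3-36 + liraglutide (94.5 to 107 CPM) lay below all saline libraries (110 to 113 CPM). Atf4 of sham rats lay above all saline libraries there. How many of all genes separate fully between groups this small was not counted, so these are no findings about PYY3-36. Ern1 of the combined treatment ran from 17.8 to 24.9 CPM in batch A and from 14.7 to 19.4 CPM in batch B, and its saline libraries from 16.3 to 22.7 and from 9.37 to 18.9 CPM. The groups thus overlapped in both batches. The 3 treatments share the saline rats, so their values do not stand for 3 separate findings.

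With sham in place of saline as the control, PYY3-36 and PYY3-36 + liraglutide gave calls, while for liraglutide 0 of 10 genes and 0.096% of all genes were called. Calr was at -0.30 (adjusted p = 0.00717) for PYY3-36 + liraglutide, where 14.7% of all genes were called, and at -0.40 (adjusted p = 0.0200) for PYY3-36, where 8.35% were. Ddit3 was called for PYY3-36 too, at -0.53 (adjusted p = 0.0456). For liraglutide the values were -0.29 for Calr (adjusted p = 0.133) and -0.40 for Ddit3 (adjusted p = 0.201), and its difference from the other treatments was not tested. These comparisons share the sham rats with RYGB vs sham.

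No effect passed a test of its difference between the batches. Over the 30 such tests, of 10 genes in the 3 comparisons with rats of both groups in both batches, the lowest adjusted p was 0.241. That value belonged to Atf4 between sham and saline, which was at 0.47 in batch A and -0.19 in batch B.

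After bypass, the 55 further genes of the pathway were called about as often as all genes. Of them 4 were higher and 2 lower in RYGB than in sham, 10.9% against the 13% of all genes. Among 16 ER chaperones and folding enzymes, Dnajc10 (0.22 ± 0.08) and Txndc5 (0.30 ± 0.10), both with thioredoxin domains, were higher. Dnajb11 (-0.24 ± 0.06), an Hsp40 partner of BiP, and Ppib (-0.31 ± 0.09), a prolyl isomerase, were lower. Of 15 genes of ER-associated degradation and translocation 1 was called, Edem1, a lectin that draws misfolded glycoproteins to degradation, at 0.25 ± 0.09. Of 16 targets of ATF4 and CHOP 1 was called, the stress-induced Sesn2, at 0.47 ± 0.16. Of 8 sensor genes and their processing enzymes, Eif2ak3 (PERK) and Atf6 included, 0 were called by edgeR. The medians of the 4 lists ran from -0.05 to 0.06. In the other 7 comparisons between groups 0 of the 55 genes were called. Among 9 cytosolic heat shock genes, Hspa8 was lower in RYGB (-0.27 ± 0.09, adjusted p = 0.0449), and 0 of 9 immediate early genes were called.

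Between rats treated alike, Hspa5, Hsp90b1, Calr, Xbp1 and Sdf2l1 varied together. For each pair of genes the correlation of log2(CPM + 1) was taken over the 65 libraries after the mean of each group in each batch had been removed. Hspa5 and Hsp90b1 had a Pearson's r of 0.93 and a Spearman's rho of 0.93, with 0.95 in batch A and 0.90 in batch B. Hspa5 had an r of 0.82 with Calr, 0.81 with Xbp1 and 0.76 with Sdf2l1. The 10 pairs among these 5 genes lay between 0.55 and 0.93, with a median of 0.75. All other 35 pairs lay between -0.43 and 0.63, with a median of 0.24. The 5 genes were not a list fixed beforehand, and Xbp1 among them encodes a transcription factor. The contrast with the other pairs is thus only a description of these data. Without BWM replicate 5 the value for Hspa5 and Hsp90b1 was 0.91, and for Hspa5 and Xbp1 it was 0.74. Ddit3 had an r of 0.63 with Hspa5, 0.62 with Atf4, 0.58 with Sdf2l1 and 0.54 with Hsp90b1, while Hspa5 and Atf4 had 0.21. Herpud1 had an r of 0.48 with Hspa5, which was 0.33 without the 2 libraries with the most extreme Hspa5. Ern1 had an r of 0.44 with Hspa5 and of -0.43 with Atf4. The first was 0.22 without the 2 most extreme libraries, and the second was -0.63 in batch A but 0.21 in batch B. Trib3 went with none of the other 9 genes above 0.37. The libraries share their depth and the makeup of the dissected tissue, so these values describe the libraries and are given without a p.

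**Figure D4:**
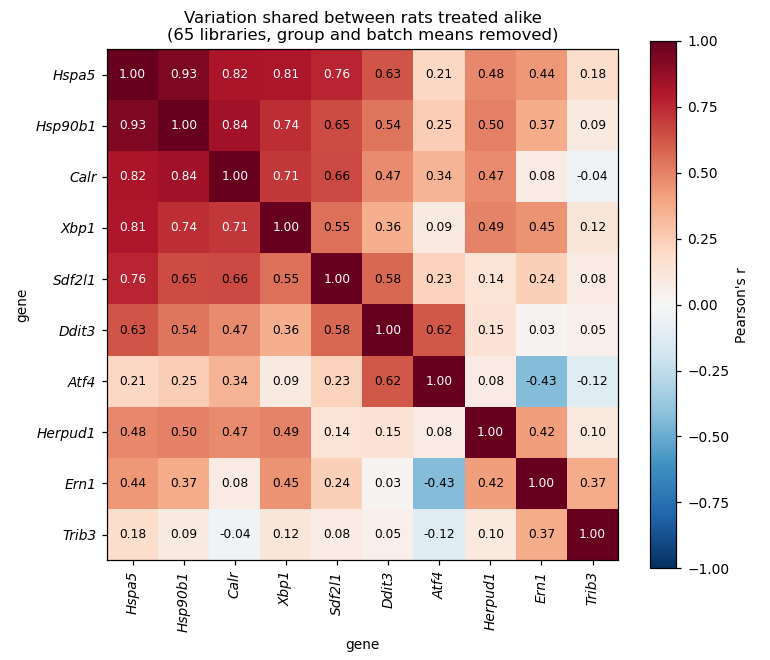
Pearson's r between the 10 genes (both axes) over 65 libraries after the mean of each group in each batch was removed, from blue (-1) through white (0) to red (1). Hspa5, Hsp90b1, Calr, Xbp1 and Sdf2l1 form a red block with r from 0.55 to 0.93, and Trib3 has no r above 0.37.

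The genes most like Hspa5 among 15952 genes with a mean of at least 50 counts were ER genes as well. They were Hsp90b1, Manf (r = 0.91), Pdia3 (0.90), Pdia4 (0.83) and Calr (0.82). MANF is a protein kept in the ER, and PDIA3 and PDIA4 are disulfide isomerases of the ER. Those most like Ddit3 were Cisd3 (0.81), Bscl2 (0.81), Trappc1 (0.81), Unc119 (0.80) and Psmb6 (0.79). For Trib3 the leading 5 were Cracr2a, Tmem237, Tubgcp3, LOC682206 and Tox3, with r between 0.56 and 0.57. The genes that carry an ERSE or ERSE-II were also compared with Hspa5. Of the 31 carriers outside the 10 genes, 23 passed the filter, and 4 of these, Creld2 (0.81), Nucb1 (0.68), Dnajc3 (0.64) and Hyou1 (0.59), had an r above 0.5, 17.4% against 4.28% of all genes. These 4 names were picked after their values were seen. The median r of the 23 was 0.141, against -0.001 over all genes tested. The lowest among them was that of Prkcz, at -0.586. Between RYGB and sham, 3 of the 23 were called, 13.04%, near the 13% of all genes.

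The level of the chaperones also went with the hypothalamus marker score. Over the 65 libraries, with group and batch means removed, Hspa5 had an r of 0.62 and a rho of 0.66 with this score, and 0.60 without the 2 libraries farthest from the median score. Within batch A the r was 0.41, and within batch B it was 0.91. For Hsp90b1 the r was 0.56, but 0.35 in batch A and 0.89 in batch B. For Calr it was 0.34, with 0.14 and 0.75, for Xbp1 0.24, with 0.03 and 0.61, and for Herpud1 0.23, with -0.01 and 0.58. For Ern1 it was 0.48, with 0.38 and 0.70, and for Ddit3 0.45, with 0.27 and 0.64. Sdf2l1 (0.55, with 0.58 and 0.53) and Trib3 (0.38 in each batch) were alike in both. Atf4 had an r of -0.15, with -0.31 and 0.16. The median of Hspa5 was 423 CPM in the 13 low libraries and 542 CPM in the other 52, while Atf4 had medians of 262 and 226 CPM. The pituitary score went with several of these genes too. Its r was 0.587 with Hspa5, 0.504 with Calr, 0.545 with Xbp1, 0.579 with Ern1 and -0.211 with Atf4. Without the 2 libraries farthest from its median it was 0.359 with Hspa5, 0.263 with Calr, 0.204 with Xbp1 and 0.368 with Ern1. With the striatum score the r ran from -0.495 for Herpud1 to -0.164 for Atf4. The part of tissue makeup in the differences between groups was not tested beyond the settings given above.

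**Figure D5:**
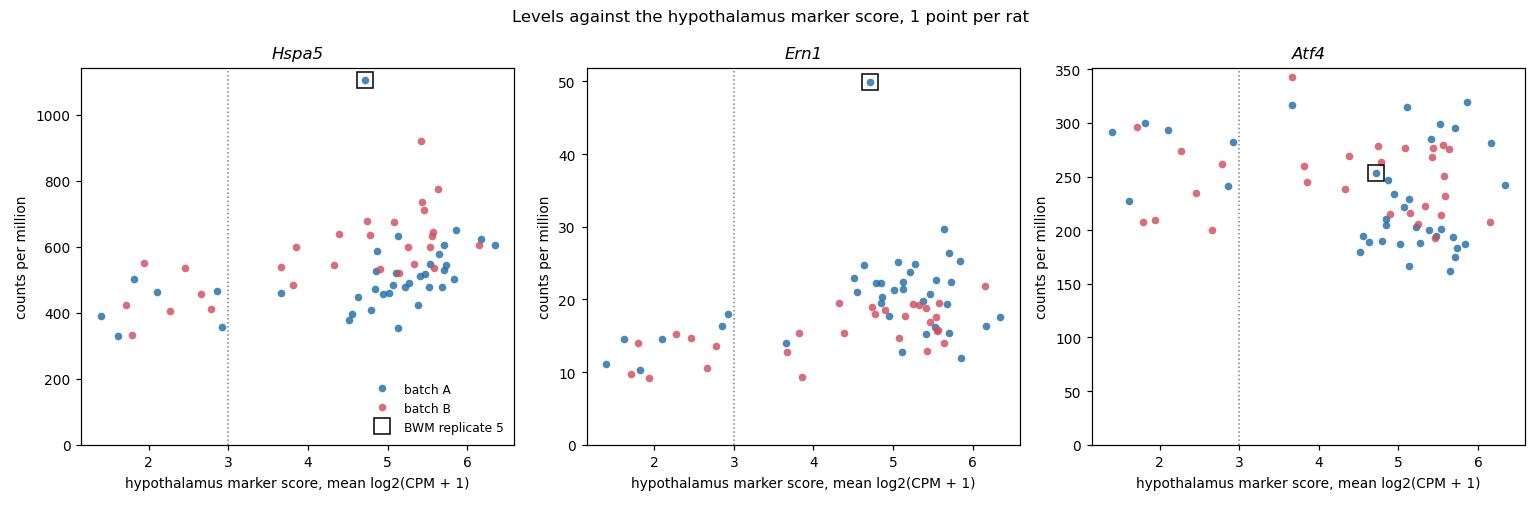
CPM of Hspa5, Ern1 and Atf4 (vertical axes, from 0) against the hypothalamus marker score (horizontal axes, mean log2(CPM + 1) of 12 genes) in each rat, with batch A in blue, batch B in red, a dotted line at a score of 3 and a square around BWM replicate 5. Hspa5 and Ern1 are lower in the 13 libraries left of the line, with medians of 423 and 14.04 CPM against 542 and 19.3 CPM, and Atf4 is not.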

How the data were processed

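Poly-A RNA of 65 hypothalami was sequenced. The authors trimmed reads with cutadapt, mapped them with STAR 2.7.2b to Rnor_6.0 and counted them by strand with featureCounts 1.6.4 over the exons of RefSeq genes, with fractions for reads of several places or genes. What was deposited are thus estimated counts, not normalized, with fractions (tolerance 1e-06) in 30.3% of the values above 0. Groups, batches and replicate numbers came from the labels of the samples. Doses, ages and times came from the methods of the study.

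Counts were rounded, filtered by filterByExpr (minimum count 10, minimum total 15), scaled by TMM and tested in R 4.3.3 with edgeR 4.0.16 (robust quasi-likelihood, group and batch as terms, all 65 libraries, 21871 genes). The test was also run on simulated counts. These held no differences between batches or in tissue makeup, so they cannot vouch for the calls in these data. Levels are CPM on TMM-scaled library sizes. Scores are means of log2(CPM + 1), a pseudocount of 1. DESeq2 1.42.0 without shrinkage, other scaling, no filter, no batch term, each batch alone, both compared groups alone, covariates, the other control group and a replicate block were alternatives, as was leaving out each library. Tables and figures were made with Python 3 tools.

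Each library is 1 rat. Neither the labels nor the study names pairs of rats, and the main fit used none. As a check, the deviations of same-numbered rats from their group means were correlated. Every pair was above 0.1 only for liraglutide and saline (5 pairs, r from 0.321 to 0.611). Saline replicates 1, 2 and 3 were in batch A and all liraglutide rats in batch B, so the shared numbers do not mark real pairs. Between liraglutide and saline the replicate block called 0 of the 10 genes, as did the fit without it.

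The members and the wider gene lists were chosen with earlier results of these data known. All 10 members were named in every comparison the text turns on. From the wider lists at most the 6 genes with the smallest p among those called were named per comparison, and the 5 genes most like Hspa5, Ddit3 and Trib3. Leaving out the libraries with a hypothalamus marker score under 3 and using this score as a covariate were added after seeing the data. Promoters are RefSeq sequences of GRCr8, a build other than that of the counts, and no coordinates were carried between them.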

Additional observations from a re-analysis of the deposited data

Results flagged for a closer look

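In each group of 4 to 10 libraries within a batch, the highest and the lowest library were compared with the rest by Dixon's ratio. Of 90 such sets over the 10 genes 8 stood out, and chance alone gives about 1 in 20. BWM replicate 5 was the highest of its 7 libraries for Hspa5 at 1104 CPM (others 328 to 631 CPM), for Xbp1 at 226 CPM (others 84.2 to 137 CPM) and for Ern1 at 49.9 CPM (others 12.7 to 21.5 CPM). This is the library with 62720 CPM of Gh1. PYY3-36 replicate 2 was the lowest of 4 for Hspa5 at 333 CPM (others 519 to 548 CPM) and for Xbp1 at 77.6 CPM (others 115 to 121 CPM). Liraglutide replicate 3 was the lowest of 5 for Herpud1 at 49.0 CPM (others 69.2 to 73.0 CPM). Both of these are among the 13 libraries low in hypothalamus markers. Lean replicate 6 was the highest of 6 for Hsp90b1 at 510 CPM (others 386 to 423 CPM) and for Sdf2l1 at 17.2 CPM (others 10.9 to 12.97 CPM), and its hypothalamus score was not low. Without it, Calr between lean and sham was at -0.42 (adjusted p = 0.0199), in a fit whose share of all genes called is not given.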

How the results depend on the processing

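Of the 10 genes, 2 were called between RYGB and sham. The count was 6 without the batch term, 1 with the replicate block (Calr at -0.33, adjusted p = 0.0265; Ern1 at 0.43, adjusted p = 0.148) and 1 with the tissue scores. It was 0 in batch A alone, 0 in batch B alone, 0 with saline in place of sham and 0 with the threshold on the fold change. Leaving out 1 library gave between 1 and 4, the latter without RYGB replicate 11, when Atf4 and Sdf2l1 were called too. Between BWM and sham the count was 0, and 1 (Ern1) without the batch term. Between lean and sham it was 0, but 3 without the batch term, 1 with the tissue scores, 1 by DESeq2, 1 without the libraries low in hypothalamus markers, and between 0 and 1 when 1 library was left out. For PYY3-36 and PYY3-36 + liraglutide it was 0 against saline, and 2 and 1 with sham as the control. The cause was not tested. Other size factors and no filter on low counts changed none of the 8 counts by more than 1.5 times. The counts here are given without the share of all genes called under the same setting. They therefore show nothing particular to these 10 genes.

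Of 2317 values of single genes under an alternative, 2270 kept their side of the threshold, 23 lost a call and 24 gained one. Only Calr and Ern1 between RYGB and sham had a call to lose, so most of the 2270 never had one. Ern1 lost its call in 13 of the 25 fits with 1 library left out, and Calr in 0. None of the called values changed sign, and 105 values without a call did. Same-numbered rats did not deviate together outside liraglutide and saline, where, as in the other comparisons besides RYGB vs sham, the replicate block called 0 of the 10 genes. Fits within a batch were made only where both groups had at least 3 libraries there, which leaves BWM and lean without a fit in batch B and each single peptide without one in batch A. At the depth of these libraries Trib3, at a median of 11 counts, could not be measured finely enough to show the sizes seen in the other genes.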

Other observations

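The markers of other tissues gave values of their own beside the stress genes. In saline replicates 5 and 7 the thalamus and habenula genes stood out, and the sum of the 4 genes in the saline group ran from 39.5 through 52.2 to 455 CPM. The meninges genes, among them those of collagens and proteoglycans, summed to between 68.3 and 1164 CPM in sham, with a median of 138 CPM, and to between 114 and 3556 CPM in RYGB, with a median of 366 CPM. The choroid plexus genes summed to at most 3694 CPM in RYGB and 696 CPM in sham, with medians of 61.1 and 57.7 CPM.

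Of the 23 tested ERSE or ERSE-II carriers outside the 10 stress genes, 2 ERSE-II carriers and 1 ERSE carrier were called between RYGB and sham, 13.04%, near the 13% of all genes. Dnajb11 was at -0.24 (adjusted p = 0.0131), Ggct at -0.47 (adjusted p = 0.0155) and Zfp57 at 0.71 (adjusted p = 0.0211), so they did not share a direction. Their r with Hspa5 was 0.12, 0.28 and 0.14.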
